A study of Mus musculus with 11 samples.

Results

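The complement genes on a panel of myeloid and innate immune transcripts were followed in the skin of mice with and without chronic graft-versus-host disease. The genes were chosen by symbol, through a pattern for the C1q chains, the C1 proteases, the numbered components, the anaphylatoxin receptors, the factors of the alternative pathway and C1 inhibitor, and 6 of the 754 genes of the panel matched it: C1qa, C1qb, C1qc, C3, C3ar1 and C5ar1. The pattern reads symbols, not expression values. Other genes that it names, among them the factors and C1 inhibitor, were not analysed here.

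The recipients were of 3 kinds, all female and 8 to 10 weeks old at transplant. Every recipient was irradiated with 850 cGy and then given 2000000 splenocytes and 5000000 bone marrow cells. The 3 syngeneic and the 3 allo-WT mice were C57BL/6J. The 5 allo-MCd mice were B6.Cg-KitW-sh/HNihrJaeBsmGlliJ, a strain on the same background that lacks mast cells because its Kit gene, which encodes the stem cell factor receptor, carries the W-sh allele. The donors of both allogeneic groups were LP/J, and their cells carried the normal Kit allele. For the syngeneic mice the sources differ, since the methods name C57BL/6J as the donor strain and the labels name LP/J. Skin of the nape was taken after week 7, and 100 ng of its RNA was counted on 1 lane per mouse with color-coded probes, without amplification. Nothing in the labels gives a transplant batch, so p-values measure the spread between these mice.

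Complement is a set of blood and tissue proteins that mark particles and cells for removal. C1q, a protein built from the products of C1qa, C1qb and C1qc, recognizes antibody bound to its target and also dying cells, and it starts the classical pathway. In tissue it is made mainly by macrophages and immature dendritic cells. All pathways meet at C3, which is cut into C3b, which coats targets, and C3a, a small peptide that attracts and activates leukocytes. C3 is made in large amounts by the liver and also locally by macrophages, fibroblasts, keratinocytes and fat cells. C3ar1 encodes the receptor for C3a, and C5ar1 encodes the receptor for C5a. Both receptors are found on macrophages and granulocytes, and mast cells can carry them too.

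The deposited values are counts scaled by the authors in the nSolver software. Unscaled counts recovered from them summed to between 831632 and 1460260 per mouse, and those of the complement genes lay between 204 and 19801, so all 6 were above background in all 11 mice. Mouse 1 of the allo-WT group stood apart, with 3975 counts for its strongest positive control against 17615 to 33547 in the other 10 mice. Kit lay between 7.98 and 21.7 in allo-MCd mice, between 54.1 and 125.7 in syngeneic mice, and at 91.3, 11.9 and 75.4 in the allo-WT mice, and it was not above background in allo-WT mouse 2 or in any allo-MCd mouse. The mast cell proteases Cma1 and Cpa3 were 588.8 and 1015 in allo-WT mouse 2, above the allo-MCd mice, which reached 188.2 and 308.7. Of 9 keratinocyte markers listed, Cdh1 was the one among the genes analysed, at 2216 to 6371 over all mice, and no keratin gene was available to check the labelled tissue.

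The stretch from 250 bases before to 50 bases after the start of transcription was taken from RefSeq on GRCm38.p6. It was matched by symbol for 5 of the 6 genes, that is, for all but C1qa. The genes for the 3 C1q chains lie side by side on chromosome 4, in the order C1qb, C1qc, C1qa. The promoters of C1qb and C1qc are shown because these chains moved together, and those of C3ar1 and C5ar1 because the receptors moved by different amounts. Each is written 5′ to 3′ along the gene, and capitals mark a match to a motif on either strand.
C1qb (chr4:136886151-136886450, minus strand): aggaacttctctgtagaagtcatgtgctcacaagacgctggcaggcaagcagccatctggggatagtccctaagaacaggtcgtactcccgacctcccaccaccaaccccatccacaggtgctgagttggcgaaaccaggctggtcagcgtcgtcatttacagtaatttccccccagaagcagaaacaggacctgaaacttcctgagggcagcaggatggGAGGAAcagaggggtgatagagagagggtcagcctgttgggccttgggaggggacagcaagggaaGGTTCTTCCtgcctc
C1qc (chr4:136892865-136893164, minus strand): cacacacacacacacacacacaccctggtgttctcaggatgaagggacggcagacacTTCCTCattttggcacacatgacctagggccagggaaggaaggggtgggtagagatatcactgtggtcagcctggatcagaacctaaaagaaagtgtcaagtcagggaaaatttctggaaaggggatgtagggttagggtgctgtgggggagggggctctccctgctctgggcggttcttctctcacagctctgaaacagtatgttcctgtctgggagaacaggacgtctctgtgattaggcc
C3ar1 (chr6:122856108-122856407, minus strand): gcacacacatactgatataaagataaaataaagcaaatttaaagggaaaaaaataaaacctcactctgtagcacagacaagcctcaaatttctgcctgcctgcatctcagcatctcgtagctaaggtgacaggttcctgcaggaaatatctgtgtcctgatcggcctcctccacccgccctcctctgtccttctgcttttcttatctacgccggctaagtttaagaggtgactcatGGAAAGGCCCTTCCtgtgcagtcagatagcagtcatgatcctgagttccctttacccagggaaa
C5ar1 (chr7:16259289-16259588, minus strand): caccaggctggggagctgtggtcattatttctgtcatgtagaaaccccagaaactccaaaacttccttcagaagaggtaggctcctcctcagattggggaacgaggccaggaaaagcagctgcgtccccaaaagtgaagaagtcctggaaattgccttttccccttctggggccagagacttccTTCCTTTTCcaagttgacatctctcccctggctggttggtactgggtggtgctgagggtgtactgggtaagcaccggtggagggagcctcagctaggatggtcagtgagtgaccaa

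A search covered 4 motifs on both strands. The PU.1 box, GAGGAA, bound by a transcription factor of myeloid cells, was found once in C1qb and once, as its reverse complement, in C1qc, and 28.3% of 32851 mouse promoters of the same length held it. A kappaB-like motif, GGNNNTTCC, was found once in C1qb, after the start of transcription, and in 2 overlapping copies in C3ar1, against 18.5% of all promoters. An interferon response element, GAAANNGAA, was found once in C5ar1, as its reverse complement, against 8.56%. The GAS element TTCNNNGAA, present in 8.3% of promoters, was found in none of the 5. None of the 4 motifs was found in the promoter of C3, whose stretch on GRCm38.p6 is chr17:57228087-57228386. A match describes the letters in this stretch and does not show that a factor binds there.

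Allo-WT skin had the highest mean of every complement gene and allo-MCd skin the lowest. Between allo-WT and syngeneic mice, 5 of 6 passed the test as higher (limma on log2(value + 1), Benjamini-Hochberg adjustment, threshold 0.05), where 28.3% of all 696 genes tested did. Between allo-MCd and allo-WT mice, 6 of 6 passed as lower, where 50% of all genes did. Between allo-MCd and syngeneic mice, 5 of 6 passed as lower, where 36.9% did. The exceptions were C5ar1 in the first of these comparisons and C3 in the last. Counted by overlap, the allo-WT values lay above all syngeneic values for 6 of 6 genes, against 33.6% of all genes. The allo-MCd values lay below all allo-WT values for 6 of 6, against 46%, and below all syngeneic values for 5 of 6, against 37.4%. Each pair of these comparisons shares the mice of 1 group, so they are not independent of each other.

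The typical gene of the panel moved too. The median log2 difference over all tested genes was 0.21 for allo-WT minus syngeneic, -0.72 for allo-MCd minus allo-WT and -0.59 for allo-MCd minus syngeneic, where the medians of the 6 complement genes were 1.20, -2.54 and -1.39. With each mouse scaled to its median gene in place of the housekeeping genes, the medians over all genes became -0.04, 0.12 and -0.01, and those of the complement genes 0.95, -1.70 and -0.79. On that scale 5 of 6 passed as higher for allo-WT minus syngeneic, against 24.3% of all genes. As lower, 6 of 6 passed for allo-MCd minus allo-WT, against 30.3%, and 5 of 6 for allo-MCd minus syngeneic, against 13.5%. Each difference was smaller on that scale, and the direction and the call of each complement gene were the same on both.

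**Figure D1:**
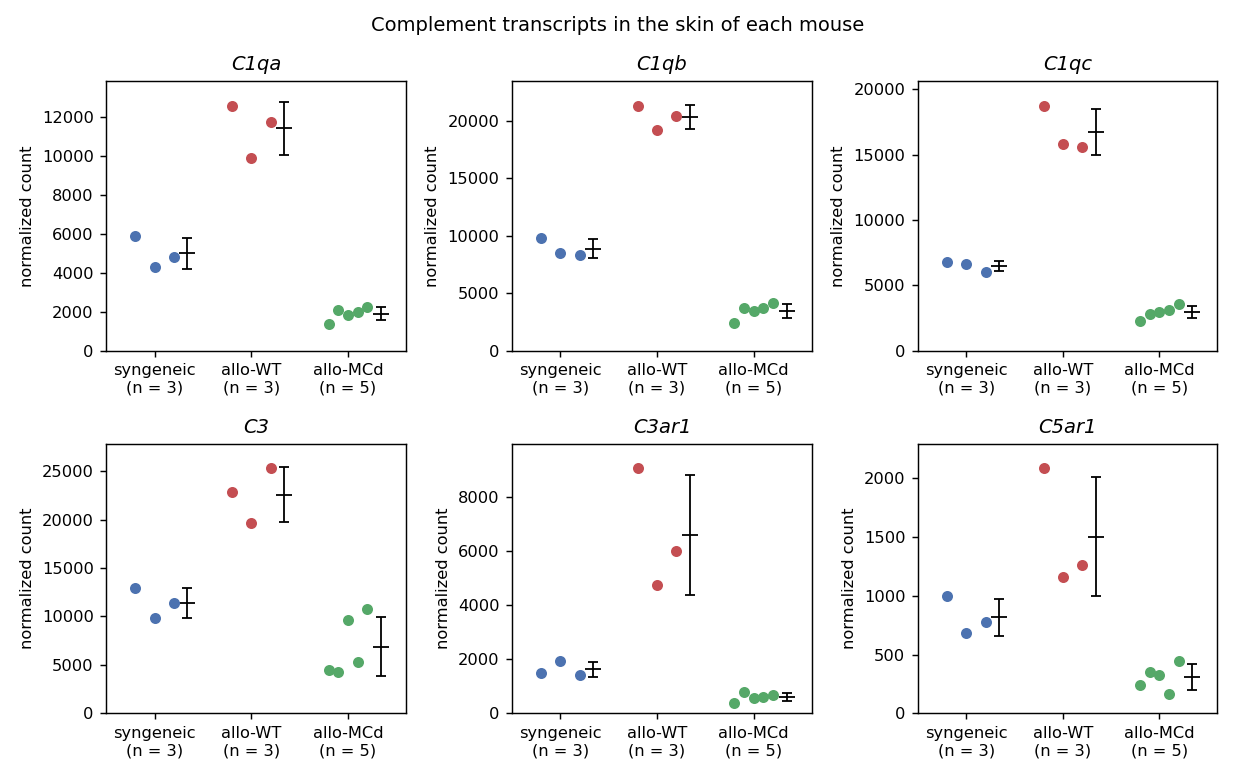
Deposited normalized count of the 6 complement genes, on linear axes from 0, with 1 point per mouse and, to its right, the mean and SD of each group (n under each name). The groups separate for every gene except C3, where allo-MCd mouse 5, at 10731, lies within the syngeneic values of 9834 to 12951 and mouse 3, at 9680, just below them.

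The chains of C1q moved together. C1qa, the A chain, measured 5882, 4314 and 4784 normalized counts in the syngeneic mice. In the allo-WT mice it measured 12582, 9912 and 11742. In the allo-MCd mice it measured 1390, 2070, 1830, 1981 and 2231. The allo-WT mice were all high and the allo-MCd mice all low, with syngeneic mice between and no overlap.

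C1qb, the B chain, measured 9845, 8459 and 8315 in syngeneic and 21328, 19229 and 20447 in allo-WT mice. The allo-MCd mice had 2425, 3693, 3417, 3711 and 4108. C1qc, the C chain, measured 6756, 6654 and 6010 in syngeneic and 18762, 15787 and 15602 in allo-WT mice. For both chains each allo-WT mouse lay above each syngeneic mouse and each allo-MCd mouse below. The allo-MCd values of C1qc were 2250, 2835, 2977, 3094 and 3537. Allo-MCd mouse 1 was the lowest of its group for all 3 chains and mouse 5 the highest.

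Group means of C1qa were 4994 ± 804.6 (SD, n = 3) in syngeneic, 11412 ± 1365 (n = 3) in allo-WT and 1900 ± 320.1 (n = 5) in allo-MCd skin. In ratios of means, allo-WT exceeded syngeneic skin 2.29-fold for C1qa, 2.29-fold for C1qb and 2.58-fold for C1qc. Allo-WT exceeded allo-MCd skin 6.00-fold, 5.86-fold and 5.69-fold in the same order. The 3 chains thus rose and fell by nearly the same factors.

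On the log2 scale the allo-WT minus syngeneic differences were 1.20 (SE 0.21, adjusted p = 0.00119) for C1qa, 1.20 (SE 0.21, adjusted p = 0.00119) for C1qb and 1.37 (SE 0.20, adjusted p = 0.000383) for C1qc. The allo-MCd minus allo-WT differences were -2.60, -2.57 and -2.52, with an adjusted p of 8.03e-07 for each. The allo-MCd minus syngeneic differences were -1.40, -1.37 and -1.15, with adjusted p-values of 0.00107, 0.00107 and 0.00134. All 9 of these calls held under every alternative run. The exact permutation test, two-sided, gave the smallest p each design allows for each chain, 0.1 for 3 mice against 3 and 0.0179 for 3 against 5.

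Within a mouse the chains kept close to a fixed proportion. The log2 ratio of C1qb over C1qa stayed between 0.74 and 0.97 over all 11 mice, a span of 0.23, while C1qa itself differed by several-fold between groups. C1qc over C1qa ranged from 0.20 to 0.70, a span of 0.50, and its 2 lowest values were in syngeneic mice 1 and 3. These ratios do not depend on the factor that scales a mouse, and they compare mice, not the levels of the chains, since each probe has its own efficiency.

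Markers of macrophages moved with the C1q chains. Of 15 listed markers 11 were among the genes analysed, and none was at 0 in any mouse. Their summed level was 16097 to 20630 in syngeneic, 29283 to 47014 in allo-WT and 7302 to 11267 in allo-MCd skin. Of the 11, 6 passed the test as higher for allo-WT minus syngeneic, 11 as lower for allo-MCd minus allo-WT and 8 as lower for allo-MCd minus syngeneic, against 28.3%, 50% and 36.9% of all genes. In whole skin, fewer cells of a type and less RNA per cell cannot be told apart, and the part of macrophage number in the C1q values was not tested. Dendritic cell markers, 4 of 6 listed, summed to 275.9 to 372.7 in syngeneic, 271.2 to 386.9 in allo-WT and 120.7 to 305.1 in allo-MCd skin. Myh4, a skeletal muscle myosin and the 1 of 7 listed muscle markers analysed, was 24768 to 55499 in syngeneic, 2504 to 3864 in allo-WT and 9063 to 65583 in allo-MCd skin, lowest in the group where the C1q chains were highest, and its part was not tested either.

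C1qa was also set against 1 macrophage marker in the same mouse, Csf1r, the receptor for macrophage colony-stimulating factor. The log2 ratio of C1qa over Csf1r was 0.54, 0.88 and 0.55 in syngeneic mice and 1.33, 1.54 and 1.10 in allo-WT mice. It was 0.88, 1.09, 0.52, 1.18 and 0.42 in allo-MCd mice. Syngeneic and allo-WT mice did not overlap, and the allo-MCd mice ran from below the syngeneic mice to just above the lowest allo-WT mouse. The difference was 0.67 ± 0.17 (SE) for allo-WT minus syngeneic, in 3 of 3 mice, with an exact permutation p of 0.1, the smallest possible, and 0.15 after adjustment over 9 ratio comparisons. It was -0.50 for allo-MCd minus allo-WT (exact p = 0.0893, adjusted p = 0.15). Csf1r itself did not pass the test between allo-WT and syngeneic mice (log2 difference 0.53, adjusted p = 0.181), whereas it fell by 2.09 on the log2 scale in allo-MCd against allo-WT mice (adjusted p = 5.49e-05). The ratio holds for Csf1r alone, since 4 of the 11 macrophage markers, Cd68 (1.34), Mrc1 (1.39), Marco (1.46) and Fcgr1 (1.92), had larger log2 differences for allo-WT minus syngeneic than the 1.20 of C1qa.

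C3, the central component, varied widely among the allo-MCd mice. Its values were 12951, 9834 and 11360 in syngeneic mice. They were 22836, 19619 and 25295 in allo-WT mice. They were 4498, 4324, 9680, 5260 and 10731 in allo-MCd mice. The allo-WT mice lay above all others, and allo-MCd mice 3 and 5 lay near the syngeneic mice while mice 1, 2 and 4 lay well below them. The coefficient of variation of C3 was 44.4% in allo-MCd skin, against 13.7% in syngeneic and 12.6% in allo-WT skin.

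Means of C3 were 11382 ± 1559 (SD, n = 3), 22583 ± 2846 (n = 3) and 6898 ± 3062 (n = 5) in syngeneic, allo-WT and allo-MCd skin. The log2 difference was 0.99 for allo-WT minus syngeneic (SE 0.35, adjusted p = 0.0385), with no overlap between the mice. This call was lost with quantile normalization (0.59, adjusted p = 0.125). It was also lost when any one of the 6 mice of these groups was left out (difference 0.89 to 1.09, adjusted p between 0.0523 and 0.102). For allo-MCd minus allo-WT it was -1.81 (SE 0.31, adjusted p = 0.000362), where the allo-WT mean was 3.27-fold higher, the smallest fold among the 6 genes. For allo-MCd minus syngeneic it was -0.82 (95% interval -1.51 to -0.14, adjusted p = 0.052), which did not pass. It was -0.23 with median scaling (adjusted p = 0.505) and -0.36 with quantile normalization (adjusted p = 0.356). Without allo-MCd mouse 3 it was -0.97 (adjusted p = 0.0269), without mouse 5 it was -1.01 (adjusted p = 0.0133), and without both it was -1.27 (adjusted p = 0.00111), a setting chosen after seeing the data. With only genes of at least 50 tested the adjusted p was 0.0495.

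Measured against C1qa in the same mouse, C3 differed most between mice of the allo-MCd group. The log2 ratio of C3 over C1qa was 1.14 to 1.25 in syngeneic and 0.86 to 1.11 in allo-WT mice, which did not overlap, with a difference of -0.21 (exact p = 0.1, adjusted p = 0.15). In allo-MCd mice it ran from 1.06 to 2.40, and mice 3 and 5 had 2.40 and 2.27. The allo-MCd minus allo-WT difference was 0.78 ± 0.26 (SE), with an exact permutation p of 0.0714 and an adjusted p of 0.15, so it was not shown that C3 fell less than C1qa. Fibroblast markers, 5 of 11 listed, summed to 89814 to 189770 in syngeneic, 12951 to 135370 in allo-WT and 36983 to 86742 in allo-MCd skin. Adipocyte markers, 4 of 8 listed, summed to 23699 to 43739, 18982 to 29159 and 17222 to 56427 in the same order, and within the allo-MCd group the 2 mice with high C3 were also the 2 with high adipocyte markers. Fabp4, a fatty acid carrier of fat cells, was 34771 and 23804 in allo-MCd mice 3 and 5 and 9842 to 11416 in mice 1, 2 and 4, and Cd36, a fatty acid transporter, was 11158 and 8927 against 3188 to 3645. Lpl, or lipoprotein lipase, was 10050 and 7991 against 3956 to 5062, and Pparg, a regulator of fat cells, was 448.4 and 371.8 against 144.4 to 215.1. The muscle gene Myh4 stood at 65583 and 57012 in the same mice, against 9063 to 21484. Mice 3 and 5 were also the highest of the group for the fibroblast genes Pdgfra (1020 and 1249 against 649.3 to 734.2) and Fn1 (3276 and 4800 against 2193 to 2853). The same held for the vessel genes Cdh5 (456.6 and 264.8 against 156.3 to 164.8) and Tek (489.7 and 591.7 against 231.8 to 306.8). The difference of these mice was thus not particular to fat and muscle, but it did not extend to every fibroblast gene. The collagen genes Col1a2 and Col3a1 were highest in mouse 5 (20504 and 59900). In mouse 3 they were 10409 and 26194, below the 17382 and 37623 of mouse 2. The part of any of these cell types in C3 was not tested.

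**Figure D2:**
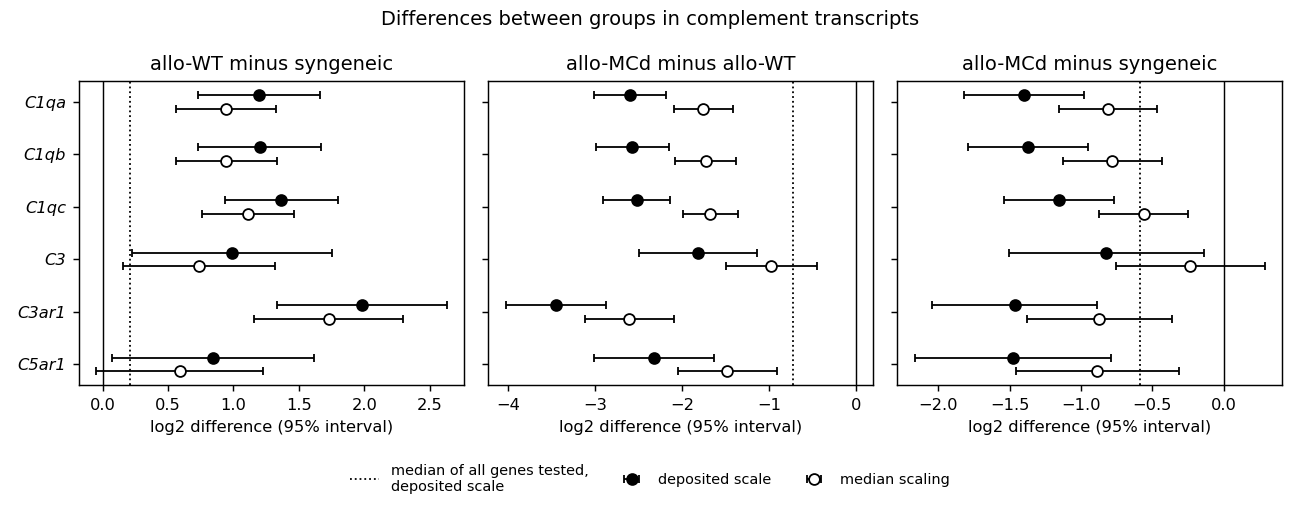
Log2 difference of each complement gene with its 95% interval from limma, for the 3 comparisons, on the deposited scale (filled) and after scaling each mouse to its median gene (open), with the median of all tested genes on the deposited scale as a dotted line. C3ar1 has the largest difference in both comparisons with allo-WT skin (1.98 against syngeneic and -3.45 for allo-MCd, on the deposited scale), and median scaling moves all 6 genes of a comparison by a similar amount without turning a sign.

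The receptor for C3a differed more than any other complement gene in both comparisons with allo-WT skin. C3ar1 measured 1502, 1947 and 1420 in syngeneic mice. It measured 9055, 4726 and 5994 in allo-WT mice. It measured 367.5, 777.8, 567.2, 604.6 and 681.5 in allo-MCd mice. No groups overlapped, and allo-WT mouse 1, the mouse with the weak positive control, had the highest value. The allo-WT mean was 4.06 times the syngeneic mean and 10.99 times the allo-MCd mean.

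The log2 difference of C3ar1 was 1.98 for allo-WT minus syngeneic (SE 0.30, adjusted p = 0.000401), rank 65 from the top among 696 genes. Without allo-WT mouse 1 the difference was 1.73 (adjusted p = 0.00192). For allo-MCd minus allo-WT it was -3.45 (SE 0.27, adjusted p = 9.41e-07), rank 38 from the bottom. For allo-MCd minus syngeneic it was -1.46 (SE 0.27, adjusted p = 0.00176). The last of these calls was lost by the methods' test on the unlogged values, both as it stands and with Benjamini-Hochberg adjustment added (adjusted p = 0.713).

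The receptor for C5a, C5ar1, differed in the same directions, and by smaller amounts in both comparisons with allo-WT skin. It measured 995.1, 687.0 and 775.2 in syngeneic mice. It measured 2086, 1163 and 1261 in allo-WT mice. It measured 243.0, 355.1, 326.4, 162.7 and 448.9 in allo-MCd mice. The groups did not overlap, but the lowest allo-WT mouse stood close to the highest syngeneic mouse, and allo-WT mouse 1 again had the highest value. The log2 difference was 0.84 for allo-WT minus syngeneic (95% interval 0.07 to 1.61, adjusted p = 0.0697), which did not pass. Without allo-WT mouse 1 it was 0.58 (adjusted p = 0.234). It did not pass under 21 of 24 alternatives, and it did when allo-MCd mouse 4, which enters the shared estimate of the spread, was left out (adjusted p = 0.0369). It also passed by the methods' test as it stands, and not with Benjamini-Hochberg adjustment added (adjusted p = 0.0986).

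In allo-MCd mice C5ar1 fell by 2.32 on the log2 scale against allo-WT mice (SE 0.32, adjusted p = 6.04e-05) and by 1.48 against syngeneic mice (SE 0.32, adjusted p = 0.00363). The methods' test did not call the second of these, as it stands or with that adjustment added (adjusted p = 0.214). Of 8 listed markers of neutrophils, which carry this receptor, 7 were among the genes analysed. Their summed level was 513.8 to 740.7 in syngeneic, 3930 to 133580 in allo-WT and 554.9 to 1167 in allo-MCd skin. Most of the allo-WT sums came from S100a8 (1892 to 76492) and S100a9 (1188 to 55154). In allo-WT mice 1, 2 and 3, Ly6g was 93.8, 19.1 and 20.4, not above background in mouse 3. Mpo was 109.0, 5.97 and 10.2 there, above background in mouse 1 alone. By histology, the study counted neutrophils in skin and reported no significant group difference. Of the 5 neutrophil markers that could be tested in limma, 4 passed as higher for allo-WT minus syngeneic and 5 as lower for allo-MCd minus allo-WT, against 28.3% and 50% of all genes. Between allo-MCd and syngeneic mice 0 passed after adjustment, with 1, Csf3r, at an unadjusted p under 0.05, while both receptors were lower there. The part of neutrophils in either receptor was not tested. Mast cell markers, 7 of 9 listed, summed to 3851 to 9348 in syngeneic, 2397 to 14802 in allo-WT and 139.3 to 655.7 in allo-MCd skin, and their part was not tested.

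The balance of the receptors separated allo-WT mice from the rest. The log2 ratio of C3ar1 over C5ar1 was 2.12, 2.02 and 2.25 in allo-WT mice. It was 0.59, 1.50 and 0.87 in syngeneic mice. It was 0.59, 1.13, 0.80, 1.89 and 0.60 in allo-MCd mice. All allo-WT mice lay above all other mice, and the syngeneic and allo-MCd ranges overlapped almost fully. The difference was 1.14 for allo-WT minus syngeneic (exact permutation p = 0.1, adjusted p = 0.15). It was -1.13 ± 0.25 (SE) for allo-MCd minus allo-WT (exact p = 0.0357, adjusted p = 0.15), lower in 5 of 5 mice, which did not pass after adjustment over the 9 ratio comparisons. It was 0.01 for allo-MCd minus syngeneic (exact p = 0.964).

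**Figure D3:**
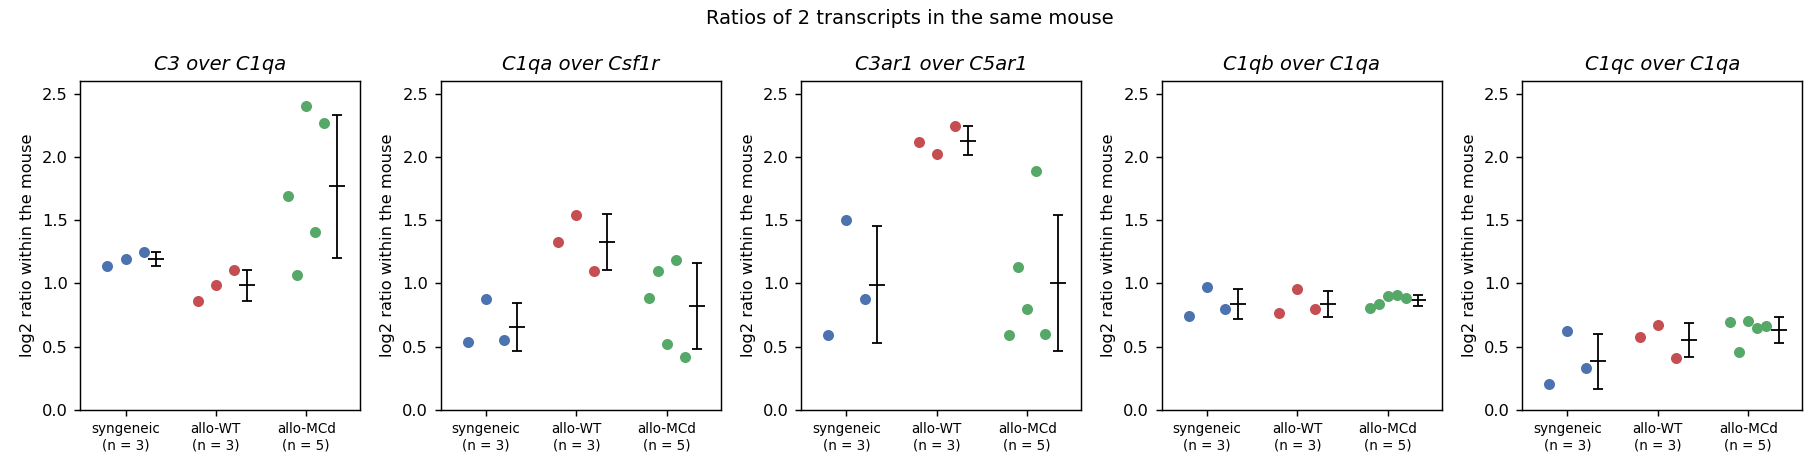
Within-mouse log2 ratios of 5 pairs of transcripts, with 1 point per mouse and, to its right, the mean and SD of each group (n under each name). For C3ar1 over C5ar1 the allo-WT mice, at 2.02 to 2.25, sit above all others, and for C3 over C1qa allo-MCd mice 3 and 5, at 2.40 and 2.27, sit above the rest of their group, while C1qb over C1qa stays within 0.74 to 0.97.

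Of a list of 41 other complement genes, 8 were among the genes analysed and 7 could be tested. Between allo-WT and syngeneic mice 2 were higher, where 28.3% of all genes were, and 1 was lower, where 14.9% were, so these shares were near those of the panel. Itgb2 and Itgam, which together form complement receptor 3, a receptor for C3b fragments on phagocytes, were higher by 1.51 (adjusted p = 0.000488) and 0.89 (adjusted p = 0.00721) on the log2 scale. Thbd, or thrombomodulin, an endothelial protein that restrains clotting and complement, was lower by a log2 difference of -1.14 (adjusted p = 0.0214), where the summed level of 3 of 7 listed endothelial markers was 1112 to 1727 in syngeneic and 522.2 to 612.7 in allo-WT skin. C4a (0.48), Itgax (0.78), the chaperone Calr (0.40) and the pentraxin Ptx3 (0.94, adjusted p = 0.273) did not pass. Ptx3, which passed in none of the comparisons in limma, is outside the rule for named genes and was named after its values were seen.

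Against allo-WT mice, 5 of these 7 genes were lower in allo-MCd mice, where 50% of all genes were. Itgb2 differed by -2.83 (adjusted p = 8.03e-07) and its partners Itgam by -2.26 (adjusted p = 2.43e-06) and Itgax by -2.23 (adjusted p = 0.000124), Itgax with Itgb2 being complement receptor 4. C4a differed by -1.50 (adjusted p = 0.000901) and Calr by -0.55 (adjusted p = 0.0163), and the latter turned to 0.29 with median scaling (adjusted p = 0.246). Thbd (-0.17) and Ptx3 (-1.43, adjusted p = 0.0608) did not pass, and Thbd was 0.68 with median scaling. The integrin chains that bind C3 fragments thus fell beside C3ar1, C5ar1 and C1q.

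Against syngeneic mice, 5 of 7 were lower in allo-MCd mice, where 36.9% of all genes were. With median scaling 2 of 7 were, against 13.5%. Itgam (-1.37, adjusted p = 0.00114) and Itgb2 (-1.33, adjusted p = 0.00135) passed on both scales. C4a (-1.02), Itgax (-1.45) and Thbd (-1.31) passed on the deposited scale and not with median scaling, where the adjusted p was 0.2, 0.0629 and 0.0806. C4a, a form of the complement component C4 of the classical pathway, measured 12142, 6330 and 9288 in syngeneic, 10703, 12831 and 14118 in allo-WT and 2916, 4618, 4922, 3481 and 7197 in allo-MCd mice. Its allo-WT and syngeneic values overlapped, unlike those of C1q and C3. C4a has a nearly identical neighbor gene, C4b, so which of these genes the probe counted is uncertain.

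The profile of C1qa over the 11 mice was close to those of genes outside the complement set. Likeness was measured as the root mean square difference of log2 values centered on the mean of the 11 mice, over 690 tested genes outside the complement set, for which the median was 0.98. The most alike were Cd68, a lysosomal protein of macrophages, at 0.17, and Il10ra, a chain of the interleukin-10 receptor, at 0.17. Within the set, C1qb stood at 0.07, C1qc at 0.16, C5ar1 at 0.37, C3ar1 at 0.45 and C3 at 0.49, so among the complement genes only C1qb and C1qc were as near to C1qa as Cd68 and Il10ra.

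The nearest genes to C3 were Serpinb9, an inhibitor of granzyme B, at 0.23, Tlr4, the receptor for bacterial lipopolysaccharide, at 0.24, and Jak3, a kinase of cytokine receptors, at 0.24, where the median was 0.80. The other complement genes were further away, from 0.44 for C1qc to 0.82 for C3ar1. Every profile covers the same 11 mice, scaled by the same factors, so likeness is a description of these samples.

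**Figure D4:**
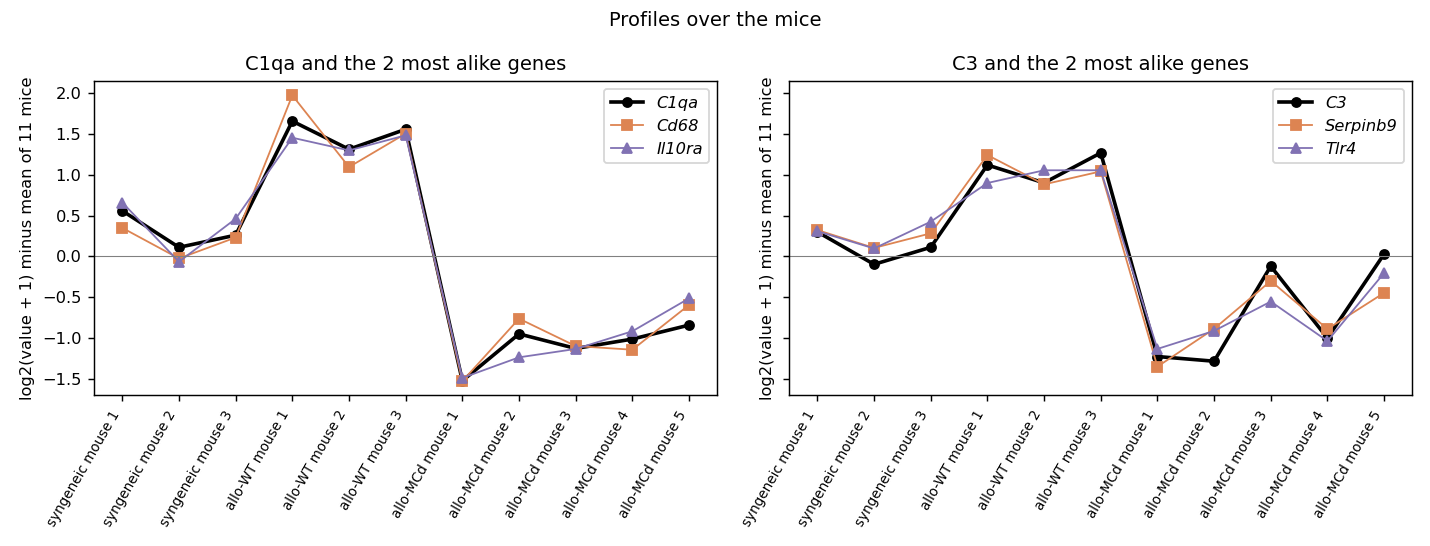
Log2(value + 1) minus its mean over the 11 mice, with the mice along the horizontal axis by group, for C1qa (left) and C3 (right), each with the 2 genes nearest to it. Cd68 and Il10ra run close to C1qa (0.17 for each), and the C3 line is higher in allo-MCd mice 3 and 5 than in the other allo-MCd mice.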

How the data were processed

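Per the labels, RNA was extracted with Trizol (the methods name Ribozol) and counted on the NanoString Myeloid Innate Immunity panel. The deposited values are a linear signal, counts that the authors normalized in nSolver, with no version given in the sources used here. The geometric mean of 20 housekeeping genes was 1104 in 10 of 11 mice, and 1089 in allo-MCd mouse 5, so the values are on a scale set by these genes. Factors of 0.759 to 2.54 recovered whole counts, within 0.011, for at least 99.9% of values per mouse. Of 754 symbols, 744 matched the RefSeq genes of GRCm38.p6, 9 by synonym and 1 not.

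The housekeeping genes were set aside and the 696 genes with at least 20 in at least 3 mice were fitted with limma 3.58.1 (R 4.3.3), all groups in 1 fit, with an intensity trend, on log2(value + 1), which understates changes of low genes. The fit was tested on simulated data. Background was set 2 SD above the mean of the negative controls. Single genes and log2 ratios were compared by two-sided exact permutation over mice, in Python 3.11.15 (scipy 1.17.1, numpy 2.4.6, pandas 2.3.3), and plots used matplotlib 3.10.9. The methods' test is the 3-group ANOVA with Tukey comparison that the methods name. It was run here on unlogged values, a scale that the methods do not state.

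The complement genes and all lists were chosen with earlier results of these data known. Named genes were every gene matching the symbol pattern, the called genes of the list of other complement genes, and the 3 genes nearest to C1qa and to C3. Of these, 1 gene is not reported here. The design also held 2 ratios that were not run. Alternatives were other pseudocounts, filters, scalings, trends and samples.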

Additional observations from a re-analysis of the deposited data

Results flagged for a closer look

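The log2 ratio of C1qc over C1qa in allo-MCd mouse 2 was 0.45, where the other 4 allo-MCd mice lay between 0.64 and 0.70. The gap to its nearest neighbor was most of the range of the group, past the 95% limit of Dixon's test for a single outlying value. It was the 1 such value among 20 groups examined, and chance alone flags about 1 in 20.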

How the results depend on the processing

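Each of 18 gene differences was recomputed under 24 alternatives, and none turned its sign. Of these values 413 kept their side of the threshold, 8 newly passed and 11 no longer passed, and 13 of the 18 differences never changed sides. The changes concerned C3 and C5ar1 between allo-WT and syngeneic mice, and C3, C3ar1 and C5ar1 between allo-MCd and syngeneic mice. The number of complement genes called lower for allo-MCd minus syngeneic was 5 in limma and 3 by the methods' test, with or without adjustment across genes, and the cause was not tested. The difference in the log2 ratio of C3ar1 over C5ar1 between allo-MCd and syngeneic mice, 0.01, turned to -0.02 with a pseudocount of 20 and ran from -0.21 to 0.27 with 1 mouse left out. The other 8 ratio differences kept their sign.

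Over all genes, median scaling and quantile normalization changed the balance of higher and lower calls. For allo-MCd minus allo-WT, 76 genes were called higher on the deposited scale, 248 with median scaling and 255 with quantile normalization, and 348, 211 and 205 were called lower. For allo-MCd minus syngeneic the higher genes numbered 32, 97 and 94 and the lower 257, 94 and 99. For allo-WT minus syngeneic the lower genes numbered 104, 190 and 209.

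With the replicate block, C3 for allo-MCd minus syngeneic was -0.98 (adjusted p = 0.0299) and C5ar1 for allo-WT minus syngeneic passed (adjusted p = 0.0469), so that 6 of 6 genes were called in each comparison. In that fit allo-MCd mice 4 and 5 share their number with no other mouse and so drop out of the differences. The mouse numbers are not known to pair the mice. Same-numbered mice correlated at 0.149, 0.211 and 0.059 between allo-WT and syngeneic groups, each best with its own number, and at -0.111, -0.056 and 0.037 between allo-MCd and allo-WT groups. Voom on recovered counts, added after seeing the data, gave the same counts of complement genes. The count test planned on such counts and 2 planned ratios were not run. With 3 mice against 3 the exact test could not go below 0.1, and the lowest recovered count of a complement gene was 204.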
